A study of Drosophila melanogaster with 216 samples.

Results

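The mitochondrial ribosomal proteins of Drosophila melanogaster were followed over sex, age, larval diet and adult diet in whole virgin flies. The genes were taken by name: every probe set of the array that the platform annotation pairs with 1 gene only, and whose symbol starts with mRpL or mRpS. The rule gave 71 probe sets of 69 genes, out of 13647 probe sets of 11982 genes with 1 gene symbol and 18769 probe sets tested. Of these, 45 carry a large-subunit name (mRpL) and 26 a small-subunit name (mRpS), and the subunits below are taken by name, although the proteins named S30 and S18A sit in the large subunit in mammals. A further 2 probe sets, for mRpS10 and mRpL53, are shared with another gene and were left out. All 71 entered every test, since no filter on low values was applied.

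Mitochondria carry their own ribosomes, which translate the few messenger RNAs of the mitochondrial genome, all of them for inner-membrane subunits of the respiratory chain and the ATP synthase. The ribosomal RNAs come from the mitochondrial genome, whereas the ribosomal proteins are encoded in the nucleus, made in the cytosol and imported, so the genes measured here are nuclear ones. The small subunit reads the message, and the large subunit joins the amino acids. Many of the proteins have bacterial counterparts of the same number, and others are found in mitochondria only. In the fly, growing egg chambers build up large stocks of mitochondria for the embryo, and flight muscle is the other tissue known for its mass of mitochondria.

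The samples were 216 arrays of a laboratory stock, with 5 whole flies pooled on each array. Flies of both sexes were kept on 1 of 3 larval diets and then on 1 of 3 adult diets, named 0.25SY, 1SY and 2.5SY. By the paper's methods 1SY held 100 g sugar and 70 g yeast per litre, whereas its results section gives these amounts the other way round. The other diets scaled both components. They were collected 1 day after eclosion, at 10% mortality of their cohort (middle-aged) or at 90% mortality (old), which gave 54 groups of 4 arrays. By the methods, the middle-aged and old flies were virgins and the pools of a group came from 1 cohort. The methods do not describe the 1-day-old collection, so pool size, virgin state and a single cohort are assumed there. Every p-value below therefore measures the spread between pools and not between cohorts. Old flies of different diets had the same cohort mortality and not the same number of days, and they are the survivors of their cohorts.

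Levels are the log2 values that the authors deposited after robust multi-array averaging (RMA), and a difference of 1 on this scale is a factor of 2. Differences are given with the standard error (SE) of the fit. A probe set was called where the moderated test of limma gave a Benjamini-Hochberg adjusted p, over all 18769 probe sets, under 0.05. Beside each first count stands the percentage of all tested probe sets called in the same direction, as the background against which the 71 are to be read. Counts of probe sets matched between the separate fits of females and males have no such percentage.

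Of the old male arrays, 3 stood apart from the other males and from their label. One (larval 0.25SY, adult 2.5SY, replicate 1) had the profile of a female, with the yolk protein gene Yp1 at 14.61 and the sperm-tail gene Mst84Da at 5.02. In another (larval 1SY, adult 0.25SY, replicate 1) both were high, at 14.20 and 11.48. The last one (larval 0.25SY, adult 1SY, replicate 3) had the muscle gene level of 1-day-old males, with a mean of 13.33 over the 19 muscle genes, where the other 33 old male arrays ranged from 11.48 to 12.02. Counts of calls that rest on old males are therefore given with and without these 3 arrays where they moved. The percentages of all tested probe sets called come from the fits with all arrays. Counts of calls without the 3 arrays, or under other settings, therefore have no background beside them. Medians and single differences between groups are from all arrays unless stated. On the other arrays the mean of the 25 testis genes was at most 5.89 in females and at least 9.73 in males.

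The 71 probe sets were well expressed. Averaged over all arrays they lay between 8.68 (mRpL11) and 12.13 (mRpS5), and each was above at least 66.9% of all tested probe sets. The brightest were mRpS5 (12.13), whose bacterial counterpart takes part in accurate decoding, mRpS7 (11.20), whose bacterial counterpart starts the assembly of the subunit's head, and mRpL28 (11.02). The dimmest were mRpL11 (8.68), from the base of the stalk that binds translation factors, and mRpL2 (8.74) and mRpL3 (8.74), whose bacterial counterparts lie in the core of the large subunit. Since probe sets differ in their response, these values are no ranking of amounts. The genes mRpL47 and mRpS11 had 2 probe sets each, which gave like values, for instance 0.22 and 0.21 for mRpL47 between adult diets in females.

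The first question was whether the sexes differed. Females were higher than males at nearly every probe set and at all 3 ages. The mean level of the 71 probe sets on an array was 10.40 ± 0.06 (SD, n = 36 arrays) in 1-day-old females and lay between 9.35 and 9.57 in 1-day-old males. In middle-aged flies the lowest, median and highest array means were 10.02, 10.29 and 10.44 in females and 9.38, 9.56 and 9.83 in males. In old flies they were 10.03, 10.22 and 10.45 in females and 9.35, 9.49 and 9.66 in the 33 males left after the 3 arrays were taken out. Female and male array means did not overlap at any age, apart from the first of the 3 arrays (10.18).

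**Figure D1:**
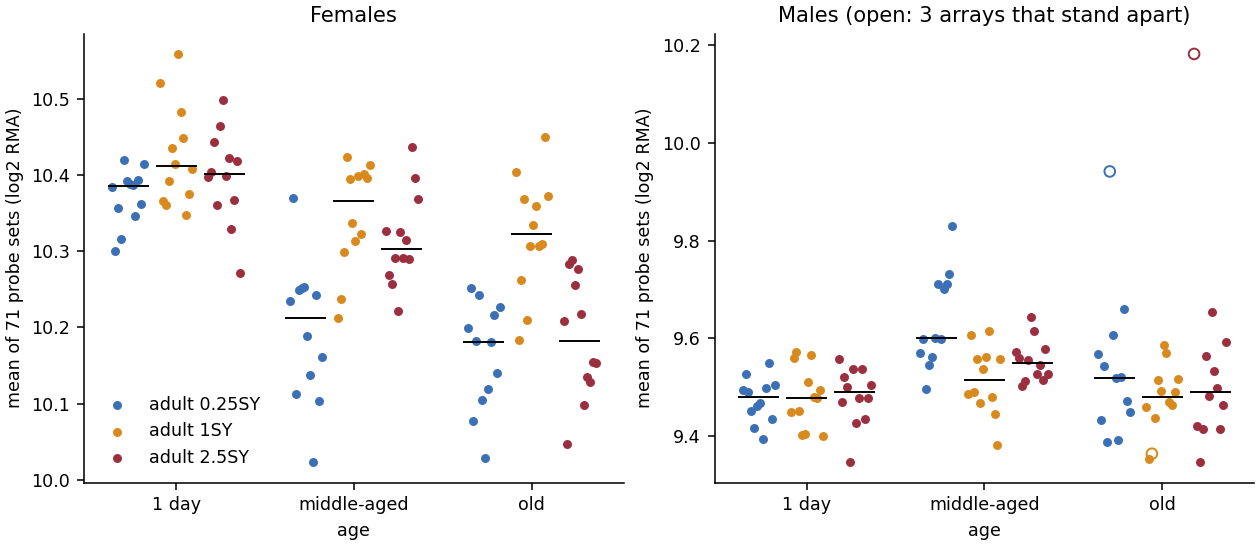
The mean deposited log2 level of the 71 mitochondrial ribosomal protein probe sets on each array (vertical axes, which differ between the panels), by age (horizontal axis) and adult diet (colour), with females on the left and males on the right. Each point is 1 array, lines are medians of 12 arrays and open circles are the 3 old male arrays that stood apart; female arrays lie between 10.02 and 10.56, and the other male arrays between 9.35 and 9.83.

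In the fit over all 216 arrays, 70 of the 71 probe sets were higher and 1 was lower in females at 1 day (background 64.4% higher and 30.2% lower). All 71 were higher in middle-aged (65.9%) and in old females (64.4%), the latter 70 without the 3 old male arrays. The median difference was 0.97, 0.74 and 0.71 at the 3 ages, a median factor of 1.96, 1.67 and 1.63, where the median over all tested probe sets was 0.27, 0.26 and 0.26. In 61 of 71 probe sets at 1 day every female array was above every male array (25.1% of all tested), and in 42 at middle age (16.3%). In old flies this held for 0 probe sets with all arrays and for 51 without the 3 arrays (22.0% of all tested). Levels between the sexes depend on how the arrays were scaled. By the study's methods each sex was normalized by itself, and whether the deposited values come from that step is not stated, so the levels and differences set across the sexes here may span separate normalizations. The median of all probe sets on an array was lower in females, at 6.78 against 7.24 in 1-day-old flies. Centred on those medians, the median difference of the 71 was 1.43, 1.22 and 1.26, beside 0.73, 0.74 and 0.81 over all tested probe sets.

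The widest sex difference belonged to mRpL39, which is related in sequence to threonyl-tRNA synthetase. Its lowest, median and highest levels at 1 day were 9.84, 10.16 and 10.34 in females and 7.52, 7.77 and 8.15 in males, with more than a log2 unit between the groups. The difference was 2.37 (SE 0.04, adjusted p = 2.58e-107) at 1 day and 1.96 at middle age. In old flies it was 1.80, or 1.87 without the 3 old male arrays. Next at 1 day came mRpL1 (1.76), the protein of the mobile L1 stalk, mRpS23 (1.68), found in mitochondria only, mRpL11 (1.59) and mRpL21 (1.50). In both later ages mRpL12 (1.30 and 1.31), mRpL1 (1.25 and 1.26) and mRpL11 (1.20 and 1.23) stood among the first 5. The first of these forms the stalk that recruits translation factors. They were joined by mRpL15 (1.16) at middle age and mRpS18A (1.36, or 1.43 without the 3 arrays) in old flies. Without the 3 arrays the differences of mRpL12, mRpL1 and mRpL11 in old flies were 1.36, 1.30 and 1.28.

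At the other end stood mRpL28, a large-subunit protein with a bacterial counterpart. Its lowest, median and highest levels at 1 day were 11.02, 11.28 and 11.51 in females and 11.24, 11.40 and 11.58 in males, so the groups overlapped over most of their range. It was lower in females by the test (-0.15, SE 0.02, adjusted p = 5.08e-11), a direction that turned to 0.31 with the arrays centred on their medians. The smallest differences in middle-aged flies were those of mRpL41 (0.09), mRpS33 (0.12) and mRpS7 (0.16), and in old flies those of mRpS22 (0.06), mRpL28 (0.10) and mRpS33 (0.17). The median differences of the 45 probe sets with large-subunit names were 0.94, 0.78 and 0.79 at the 3 ages, and those of the 26 with small-subunit names 1.00, 0.63 and 0.56; the subunits were not tested against each other. The 11 probe sets of X-linked genes (by the Release 6 annotation) had a median difference of 0.94, 0.75 and 0.62 at the 3 ages, and the 60 autosomal ones 1.01, 0.73 and 0.75.

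**Figure D2:**
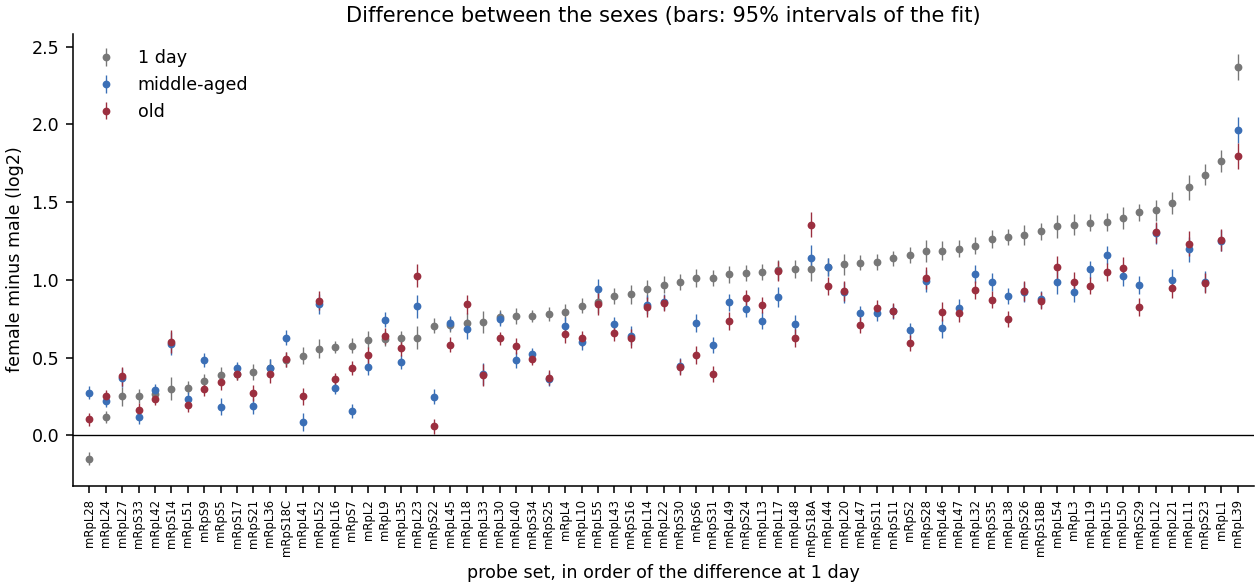
The female minus male difference in log2 level (vertical axis) of each of the 71 probe sets in 1-day-old, middle-aged and old flies (colours), in order of the difference at 1 day (horizontal axis), with 95% intervals of the fit as bars. With all arrays, the median falls from 0.97 at 1 day to 0.71 in old flies. The gene mRpL39 is the highest at each age, and mRpL28 at 1 day is the only point below 0.

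In bulk RNA of whole flies, fewer cells of a type and less RNA per cell cannot be told apart, and the sexes differ in their gonads. The 24 female germline genes had a mean level between 10.82 and 11.30 on the 1-day-old female arrays and between 6.57 and 6.86 on the male ones, and 23 of the 24 were higher in females. The 16 ovary, yolk and eggshell genes were all higher, and 24 of 25 testis genes were lower. Of 19 muscle genes, 17 were lower in 1-day-old females (median -0.45). The part of these tissues in the sex difference of the 71 was not tested.

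The deposited age series also holds 1-day-old flies, whose arrays the paper does not report. From 1 day to middle age, the 71 probe sets went down in females and split in males. In females 51 were lower and 4 were higher (background 35.3% and 25.7%), with a median difference of -0.11 against -0.03 over all tested probe sets. In males 38 were higher and 18 were lower (37.6% and 34.8%), with a median of 0.13 against -0.00. The test of the difference between the sexes called 60 of 71 (51 with the lower value in females, background 30.1%, and 9 with the higher, 24.8%). The sexes share no arrays here. Over the 71 probe sets the female and male differences had a Pearson r of 0.77, given as a description because the probe sets share the arrays. A total of 20 probe sets fell in females and rose in males, 17 fell in both and 4 rose in both, counts that have no background.

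In females the deepest falls were those of mRpL44 (-0.31, SE 0.02, adjusted p = 9.71e-26), which carries a ribonuclease III-like fold, mRpL42 (-0.31), found in mitochondria only, mRpL27 (-0.31), whose bacterial counterpart reaches the peptidyl transferase centre, and mRpL23 (-0.31), whose bacterial counterpart lies at the rim of the exit tunnel. The other direction was taken by mRpS30 (0.08), mRpL16 (0.07) and mRpL33 (0.06) among the 4 that rose. The 36 middle-aged and 36 young female arrays overlapped for all 71 probe sets, and 1.49% of all tested probe sets were free of overlap.

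In males the rises were led by small-subunit names. The lowest, median and highest levels of mRpS30 were 9.27, 9.52 and 9.70 at 1 day and 9.90, 10.13 and 10.41 at middle age, so every middle-aged array was above every young one. It rose by 0.62 (SE 0.03, adjusted p = 9.99e-33), beside mRpS23 (0.63), mRpS2 (0.53), mRpL1 (0.49) and mRpS22 (0.48). The opposite course was that of mRpL28, with 11.24, 11.40 and 11.58 at 1 day and 10.63, 10.75 and 11.06 at middle age, again without overlap (-0.65, SE 0.02, adjusted p = 4.17e-44). The falls of mRpL52 (-0.53) and mRpS14 (-0.52) came next. Of the 26 probe sets with small-subunit names 18 rose and 5 fell (median 0.22), and of the 45 with large-subunit names 20 rose and 13 fell (median 0.02). In all, 6 of 71 rose and 1 fell without overlap (6.03% and 5.72% of all tested).

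**Figure D3:**
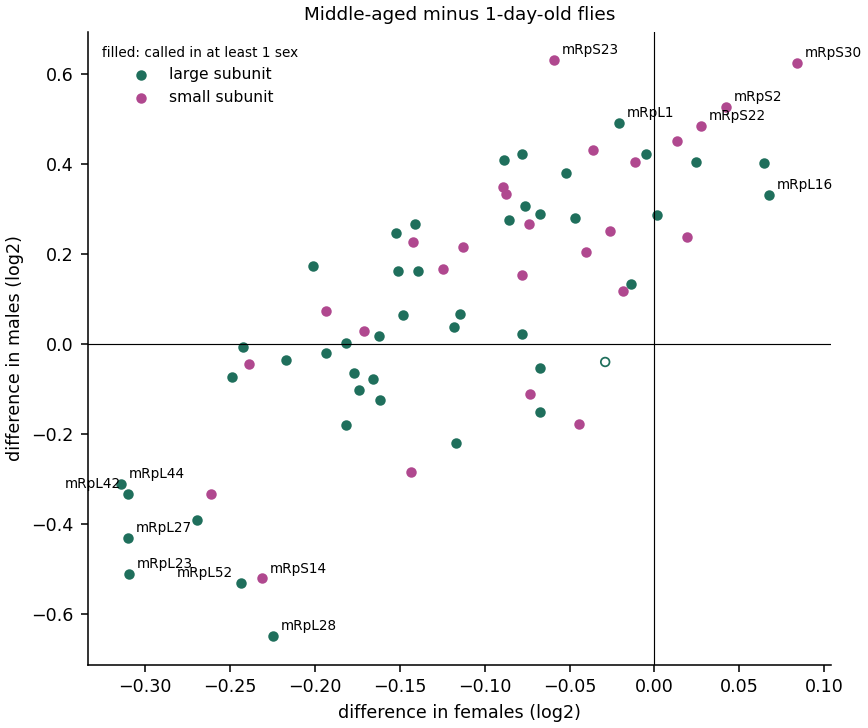
The difference between middle-aged and 1-day-old flies for each of the 71 probe sets, in females (horizontal axis, log2) and in males (vertical axis, log2). Each point is 1 probe set, coloured by subunit and filled where it was called in at least 1 sex; most points lie left of 0, at a median of -0.11, while the male values spread from -0.65 to 0.63.

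Between 1-day-old and old flies the female fall went further: 65 were lower and 0 higher (33.8% and 26.9%), with a median of -0.15. It was deepest for mRpL23 (-0.49), mRpL44 (-0.45), mRpL27 (-0.43), mRpL42 (-0.40) and mRpL28 (-0.40). In males 33 were higher and 24 lower (38.4% and 42.4%), at a median of 0.04, or 32 and 28 without the 3 arrays and 27 and 29 with centred arrays, which moved the median of all probe sets to -0.10. The rise was again led by mRpS23 (0.61), with mRpS29 (0.58), the homologue of the GTP-binding protein DAP3, mRpS22 (0.52), mRpS2 (0.50) and mRpS31 (0.49), and the fall by mRpL23 (-0.88), mRpL28 (-0.65) and mRpS14 (-0.63), which were -0.97, -0.68 and -0.69 without the 3 arrays. These values share the 1-day-old arrays with the paragraphs above.

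Other tissue markers moved over the same interval. In females all 16 ovary, yolk and eggshell genes (median -2.24) and all 19 muscle genes (median -1.40) were lower at middle age than at 1 day, as were 21 of the 24 female germline genes, with 2 higher (median -0.43). In males 22 of 25 testis genes were lower and 1 was higher (median -0.58), with array means of 10.41 to 10.70 at 1 day and 9.77 to 10.43 at middle age, and all 19 muscle genes were lower (median -1.32). Their part in the differences of the 71 was not tested.

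The next question was the response to adult diet in the middle-aged and old flies. Females on 1SY had higher levels than females on 0.25SY in most of the 71 probe sets, and males had lower levels or no call. In females 55 were higher and 3 were lower (27.8% and 25.0% of all tested), with a median of 0.16 against 0.00 over all tested probe sets. In males 0 were higher and 18 were lower (4.37% and 3.91%), with a median of -0.10 against 0.00, and 27 were called without the 3 old male arrays (26 lower and 1 higher). Scaling mattered here: with the arrays centred on their medians, which moved the median of all probe sets in females to 0.11, 68 were higher and 1 lower in females, and 2 were lower in males. With blocks of 24 consecutive sample numbers of the array provider in the fit, 10 were lower in males, and without replicate 2 of every group 1 was called. The highest provider numbers shared a single block over a wider range. The difference between the sexes itself was called for 65 of 71, with 64 more positive in females (24.7%) and 1 less (21.9%). The sign was positive in females and negative in males for 63 of the 71, and both tests were passed, in those directions, by 13, which are 13 of the 55 and 13 of the 18. These matched counts are from all arrays, were not taken without the 3 arrays and have no background.

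In females the array means of the 71 probe sets show the pattern at both ages. On 0.25SY their lowest, median and highest values were 10.02, 10.21 and 10.37 at middle age and 10.03, 10.18 and 10.25 in old flies. On 1SY they were 10.21, 10.37 and 10.42 at middle age and 10.18, 10.32 and 10.45 in old flies. The medians of 1SY were above the highest array mean of 0.25SY in old females, and the ranges overlapped at both ages. On 2.5SY they were 10.22, 10.30 and 10.44 at middle age but 10.05, 10.18 and 10.29 in old flies, near those of 0.25SY.

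The largest rise was that of mRpS18A. In middle-aged females its lowest, median and highest levels were 9.55, 10.29 and 10.82 on 0.25SY and 10.56, 10.83 and 10.98 on 1SY. In old females they were 10.27, 10.60 and 11.05 on 0.25SY and 10.77, 10.96 and 11.10 on 1SY. The arrays on 0.25SY reached much lower, and the groups overlapped at their upper ends. Over both ages the difference was 0.44 (SE 0.05, adjusted p = 1.24e-10).

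Among the other leaders mRpS29 was the one that separated the groups. In middle-aged females it went from 9.34, 9.71 and 10.00 on 0.25SY to 10.05, 10.17 and 10.33 on 1SY, without overlap. Such separation was found for 2 of 71 probe sets (0.996% of all tested). Its difference over both ages was 0.34 (SE 0.04, adjusted p = 3.05e-12), as were those of mRpL39, mRpL50 and mRpL11.

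The 3 that were lower on 1SY in females were mRpS9, whose bacterial counterpart reaches the transfer RNA in the peptidyl site, mRpL28 and mRpL41. For mRpS9 the levels at middle age were 10.66, 11.01 and 11.21 on 0.25SY and 10.55, 10.64 and 10.79 on 1SY, so only the lowest arrays of 0.25SY reached those of 1SY. It fell by 0.23 (SE 0.03, adjusted p = 1.1e-09). The falls of mRpL28 (-0.11) and mRpL41 (-0.09) were smaller and lost their sign with the arrays centred on their medians (0.0042 and 0.02).

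**Figure D4:**
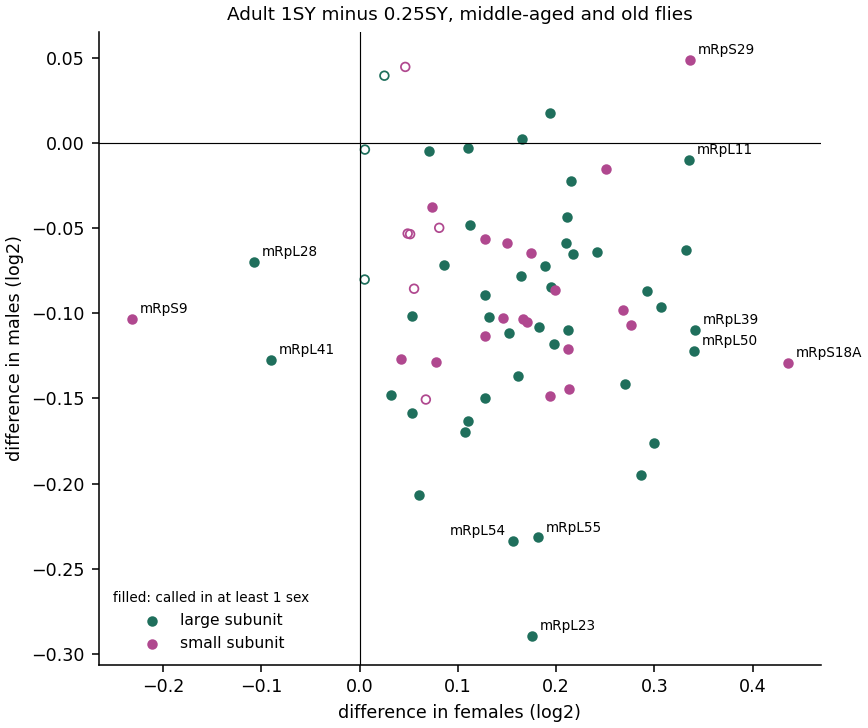
The difference between adult diets 1SY and 0.25SY for each of the 71 probe sets, in females (horizontal axis, log2) and in males (vertical axis, log2), over middle-aged and old flies. Each point is 1 probe set, coloured by subunit and filled where it was called in at least 1 sex; the medians are 0.16 in females and -0.10 in males, and 63 points lie right of 0 in females and below 0 in males.

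The response in females held at both ages for 1SY and at one age for 2.5SY. Against 0.25SY, 46 were higher and 3 lower on 1SY at middle age (26.1% and 24%; median 0.15) and 59 and 2 in old females (23.7% and 17.4%; median 0.16). Against the same 0.25SY arrays, 39 were higher and 4 lower on 2.5SY at middle age (25.4% and 22.1%; median 0.13), but 1 was higher and 2 were lower in old females (6.55% and 5.82%; median 0.03). Over both ages 35 were higher and 3 lower on 2.5SY (26.0% and 19.1%; median 0.06), led by mRpS18A (0.32) and mRpS29 (0.29), with mRpS9 the lowest (-0.24). When quantile normalization was repeated within the sex, the counts on 1SY at middle age became 33 higher and 7 lower, and those on 2.5SY 29 and 7 at middle age, 0 and 3 in old females and 21 and 6 over both ages. Without replicate 3 of every group, 20 were called on 2.5SY over both ages in place of 38.

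Between the richer diets, 0 were called in middle-aged females by limma (2.29% higher and 1.18% lower over all tested; 7 of 71 had an unadjusted p under 0.05). In old females 46 were lower and 1 was higher on 2.5SY (16.8% and 15.4%; median -0.14). The lead was taken by mRpL39 (-0.28, SE 0.05, adjusted p = 2.83e-05), mRpL44 (-0.26), mRpL19 (-0.24), mRpL50 (-0.24) and mRpL15 (-0.24), while mRpL28 was higher (0.11). In old females mRpL39 stood at 10.09, 10.21 and 10.37 on 1SY and at 9.71, 9.95 and 10.16 on 2.5SY, with a narrow overlap.

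In males the largest difference between 1SY and 0.25SY was that of mRpL23. At middle age its lowest, median and highest levels were 9.60, 9.88 and 10.15 on 0.25SY and 9.26, 9.46 and 9.69 on 1SY, which overlapped in a narrow band. Over both ages it fell by 0.29 (SE 0.07, adjusted p = 0.00226; -0.30 without the 3 arrays). The following ones, mRpL54 (-0.23), mRpL55 (-0.23), mRpL48 (-0.21) and mRpL12 (-0.19), all carry large-subunit names, and mRpL54 and mRpL55 have no bacterial counterpart. By age, 14 were lower at middle age (3.65%; median -0.13) and 1 in old males (1.2%), which was mRpL30 (-0.18, adjusted p = 0.0487). Without the 3 arrays 38 and 2 were lower. On 2.5SY against 0.25SY 7 were lower and 1 higher (4.48% and 7.14%), among them mRpL23 (-0.22), mRpS7 (-0.15) and, on the higher side, mRpS29 (0.14). Without the 3 arrays 20 were lower and 1 was higher, and with centred arrays 0 were lower and 1 was higher. The direct test of sex by 2.5SY against 0.25SY called 35 of 71, of which 34 were more positive in females (15.0%) and 1, mRpS9, less (13.4%), or 15 and 3 when quantile normalization was repeated over all arrays. Between 2.5SY and 1SY 0 were called in males by limma (2.37% of all tested; 14 with an unadjusted p under 0.05).

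Egg-chamber markers moved with the adult diet of females. On 1SY against 0.25SY all 16 ovary, yolk and eggshell genes were higher (median 2.44), 22 of 24 female germline genes were higher and 1 lower (median 0.59), and 17 of 19 muscle genes were lower (median -0.75). At middle age the mean of the ovary, yolk and eggshell genes on an array ran from 7.20 to 12.82 on 0.25SY, from 11.74 to 13.60 on 1SY and from 7.64 to 12.80 on 2.5SY. The germline mean ran from 7.92 to 11.02 on 0.25SY and from 10.73 to 11.19 on 1SY. In old females on 2.5SY against 1SY, 15 of the 16 were lower (median -2.48), as were 12 of 24 germline genes, with 1 higher, and 16 of 19 muscle genes were higher. On 2.5SY against 0.25SY, 12 of the 16 and 22 of the 24 were higher at middle age, and 0 of the 16 and 0 of the 24 in old females, with 1 germline gene lower. The part of these tissues in the differences of the 71 was not tested. Without the 2 middle-aged female arrays on 0.25SY that had the lowest quality weights, 56 probe sets were called in place of 58 on 1SY against 0.25SY.

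Age was tested between middle-aged and old flies. In females 36 of the 71 probe sets were lower in old flies and 1 was higher (21.1% and 24.2%), with a median of -0.06 against -0.00 over all tested probe sets. With the arrays centred on their medians 15 were lower and 3 higher, at a median of -0.01. In males 22 were lower and 6 higher (18.5% and 22.7%), at a median of -0.02. Without the 3 old male arrays, 33 were lower and 6 higher, at a median of -0.06. When quantile normalization was repeated 28 were lower and 2 higher, and without replicate 2 of every group 18 were called in all. Of the probe sets called with all arrays, 15 were lower in both sexes (15 of the 36 and of the 22), and 1 was lower in females and higher in males. These matched counts have no background and were not taken without the 3 arrays. The sex difference of the age effect was called for 27 of 71 (9 more positive in females, background 11.1%, and 18 less, 17.8%), for 17 and 11 without the 3 arrays, and for 18 and 5 with centred arrays.

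The 5 largest falls in females were those of mRpS30 (-0.23, SE 0.02, adjusted p = 1.39e-12), mRpL41 (-0.22), mRpL23 (-0.18), mRpL28 (-0.17) and mRpS9 (-0.17), and mRpS18A was the one that rose (0.13, adjusted p = 0.00702). In males the falls were led by mRpL41 (-0.38, SE 0.04, adjusted p = 4.87e-13), mRpL23 (-0.37), mRpS7 (-0.32), mRpS30 (-0.22) and mRpS5 (-0.21). Thus mRpS30, mRpL41 and mRpL23 stood among the first 5 in both sexes. In males mRpL41 went from 9.69, 9.92 and 10.22 at middle age to 9.22, 9.55 and 9.99 in old flies, and in females from 9.75, 9.99 and 10.30 to 9.58, 9.82 and 9.97. The ranges overlapped in both sexes, with the old arrays reaching lower. The rises in males were those of mRpL39 (0.18), mRpS6 (0.16) and mRpS29 (0.15), which were 0.11, 0.15 and 0.12 without the 3 arrays. Over the same interval all 19 muscle genes were lower in old females (median -0.56), 15 of 24 germline genes were higher and 1 lower (median 0.24), and 0 of 16 ovary, yolk and eggshell genes were called. In males 5 of 19 muscle genes were higher and 6 lower, or 6 and 10 without the 3 arrays, and 3 of 25 testis genes were lower and 1 higher, or 4 and 1. The part of these tissues in the age differences of the 71 was not tested.

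The age effect in females was also taken on each adult diet. On 0.25SY 21 were lower and 9 higher in old flies (21.0% and 24.1%; median -0.04), on 1SY 6 were lower and 0 higher (9.8% and 8.24%; median -0.02), and on 2.5SY 40 were lower and 0 higher (7.77% and 6.84%; median -0.14). On 2.5SY all 71 differences were negative, where the median over all tested probe sets was -0.01. On 0.25SY the split of calls turned with the scaling, to 32 lower and 4 higher when quantile normalization was repeated and to 7 lower and 15 higher with centred arrays, and on 1SY centred arrays gave 2 lower and 1 higher. The interaction of adult diet and age was called for 21 of 71, a share of 29.6% that is near the 27% of all tested probe sets. Without replicate 1 of every group 7 were called, without replicate 3 12 and without replicate 4 8. It was strongest for mRpL19 (F = 12.9, adjusted p = 0.000534), a large-subunit protein with a bacterial counterpart, mRpS29 (F = 12.8), mRpL44 (F = 11.5), mRpL39 (F = 11.1) and mRpL17 (F = 9.1).

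For mRpL19 the old minus middle-aged difference fell from 0.11 with 0.25SY through -0.02 with 1SY to -0.17 with 2.5SY. The order was the same for mRpS29 (0.19, -0.02 and -0.16), mRpL39 (0.15, 0.08 and -0.18), mRpL17 (0.20, 0.07 and -0.14) and mRpL44 (-0.01, -0.11 and -0.27). On 2.5SY the lowest, median and highest levels of mRpL44 were 10.27, 10.38 and 10.52 at middle age and 9.88, 10.14 and 10.24 in old flies, without overlap, the only such case among the 71 on this diet (0.581% of all tested). On 0.25SY the falls and rises stood side by side: mRpL41 (-0.36), mRpS9 (-0.27) and mRpS30 (-0.27) fell, and mRpS18A (0.33), mRpL11 (0.21) and mRpL17 (0.20) rose. Beside the falls on 2.5SY, 2 of 16 ovary, yolk and eggshell genes, 2 of 24 germline genes and 8 of 19 muscle genes were lower in old flies, and 0 of each were higher. On 0.25SY all 19 muscle genes were lower (median -0.88), and 21 of 24 germline genes, with 1 lower (median 0.67), and 6 of 16 ovary, yolk and eggshell genes were higher. Their part was not tested.

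**Figure D5:**
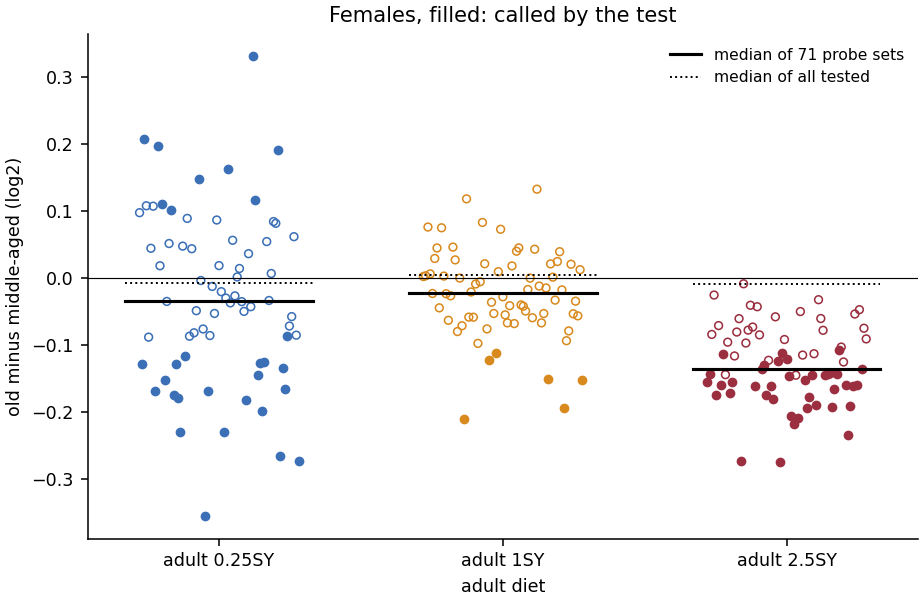
The old minus middle-aged difference of each of the 71 probe sets in females (vertical axis, log2) on the 3 adult diets (horizontal axis). Each point is 1 probe set, filled where called, solid lines are medians of the 71 and dotted lines medians of all tested probe sets; on 2.5SY all points lie below 0, at a median of -0.14, where the medians of the other diets are -0.04 (0.25SY) and -0.02 (1SY).

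In males the interaction of adult diet and age was called for 0 of 71 by limma (0.256% of all tested; 2 with an unadjusted p under 0.05). Old males were lower in 16 and higher in 0 on 0.25SY (9.27% and 8.27%), in 8 and 1 on 1SY (5.8% and 7.21%; 8 and 0 with centred arrays) and in 10 and 5 on 2.5SY (13.4% and 18.9%; 11 and 3 when quantile normalization was repeated). Without the 3 arrays 38 were lower and 1 higher on 0.25SY, 19 and 6 on 1SY and 23 and 3 on 2.5SY, and the rises of mRpL39, mRpL15 and mRpS29 on 2.5SY were 0.19, 0.12 and 0.11 in place of 0.34, 0.20 and 0.19. The interaction was then called for 2. The fall of mRpL41 was present on each diet, at -0.43, -0.36 and -0.36, and so was that of mRpS7, at -0.28, -0.32 and -0.38.

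In the main fit with all arrays, larval diet left no called difference in the later ages. In males this depended on the 3 old male arrays, as given below. In females 0 of 71 passed for 1SY against 0.25SY, 2.5SY against 0.25SY and 2.5SY against 1SY by limma (0.00533%, 0.197% and 0.0107% of all tested), and 0, 6 and 5 had an unadjusted p under 0.05. The 95% intervals of the single probe sets reached from -0.20 to 0.16 over the 3 contrasts, with a median half-width of 0.06. In males 0 were called as well (0.304%, 0.101% and 0.0% of all tested), with intervals between -0.25 and 0.26 and a median half-width of 0.09. Yet 64 of the 71 male differences between larval 1SY and 0.25SY were positive, at a median of 0.07 against -0.00 over all tested, and 19 had an unadjusted p under 0.05. Without the 3 old male arrays, 2 of which came from larval 0.25SY, 18 were called in males, all higher on 1SY. The 0 in males thus depended on these arrays, and the share of all tested probe sets without them is not given. The 18 therefore cannot be read against a background. The paper left out arrays of low quality and reports a male cluster affected by larval diet and enriched for terms related to mitochondrial ribosomes. That cluster belonged to a group with the inverse of a profile high on larval 0.25SY and low on 1SY. The 18 calls, higher on 1SY, had that direction, and their membership of the cluster was not looked up. The interactions of larval diet with adult diet and with age were called for 0 of 71 in either sex by limma (3.6% and 0.0% of all tested in females, 0.0213% and 0.00533% in males). An unadjusted p under 0.05 was found for 7 and 2 in females and for 0 and 3 in males. The interaction of all 3 factors was also called for 0 in either sex (0.613% of all tested in females, 0.00533% in males). There 20 in females and 2 in males had an unadjusted p under 0.05.

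In 1-day-old females the F-test of larval diet called 34 of 71, a share of 47.9% that is near the 41.2% of all tested probe sets. On larval 1SY against 0.25SY 31 were higher and 7 lower (23.3% and 19.5%), with a median of 0.06 against 0.02 over all tested probe sets. The split depended on the scaling, with 13 and 13 when quantile normalization was repeated and 52 and 1 with centred arrays, and with the blocks by provider number 7 were higher and 4 lower. The lead was taken by mRpL3, whose lowest, median and highest levels were 9.09, 9.17 and 9.27 on 0.25SY, 9.36, 9.41 and 9.64 on 1SY and 9.19, 9.32 and 9.46 on 2.5SY. Its arrays on 0.25SY and 1SY did not overlap, and those on 2.5SY lay between (0.26, SE 0.03, adjusted p = 6.58e-08). It was followed by mRpL12 (0.26), mRpL11 (0.25), mRpL38 (0.23) and mRpS18A (0.20), and the falls were led by mRpL33 (-0.20), mRpL27 (-0.20) and mRpL28 (-0.18).

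Larval 2.5SY was lower than 1SY in 17 and higher in 0 (12.6% and 6.76%; median -0.07), again with mRpL38 (-0.17), mRpL11 (-0.16), mRpL54 (-0.15) and mRpL12 (-0.14) in front, and against 0.25SY 4 were higher and 9 lower (15.3% and 13.7%), or 2 and 13 when quantile normalization was repeated and 16 and 3 with centred arrays. On the same arrays 17 of 24 germline genes were higher and 0 lower on larval 1SY against 0.25SY (median 0.24), 6 of 16 ovary, yolk and eggshell genes were higher and 2 lower, and all 19 muscle genes were lower (median -0.41); their part was not tested. In 1-day-old males 1 was lower on 1SY (3.44%), mRpL14 (-0.16, adjusted p = 0.0354), and 1 on 2.5SY (3.59%), mRpL33 (-0.22, adjusted p = 0.0373). Both calls were lost with centred arrays.

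The adult diet, on which these flies had spent at most a day, gave 6 higher and 0 lower in females on 1SY against 0.25SY (1.53% and 4.97%), with mRpS25 (0.13, adjusted p = 0.0118), mRpL16 (0.12), mRpL46 (0.12), mRpL22 (0.12) and mRpL32 (0.11) in front, against 44 higher with centred arrays and 0 with the provider blocks. On 2.5SY 1 was higher (0.89%), mRpS30 (0.12). In 1-day-old males 0 were called for any adult diet contrast by limma (0.405%, 2.76% and 0.527% of all tested; 6, 11 and 1 with an unadjusted p under 0.05).

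Other genes of mitochondrial gene expression were read from 34 listed genes that had a probe set of their own: aminoacyl-tRNA synthetases, translation factors, transcription factors and RNA-handling proteins. In females 27 of the 34 were higher and 3 lower on adult 1SY against 0.25SY (median 0.28), among them ValRS-m (0.46), which charges mitochondrial transfer RNA, mRF1 (0.43), a release factor, and PNPase (0.42), which degrades RNA, with PheRS-m lower (-0.23). In old females on 2.5SY against 1SY 27 were lower and 0 higher (median -0.21). With age in females 14 were higher and 7 lower (median 0.05), where 36 of the 71 were lower. In males on adult 1SY against 0.25SY 2 were lower, TFAM (-0.20), the packaging and transcription factor of mitochondrial DNA, and TyrRS-m (-0.17). Without the 3 old male arrays 7 were lower, these included (-0.19 and -0.16).

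A further 2 ribosomal proteins of mitochondria carry names of their own, tko (S12) and bonsai (S15), and fall outside the naming rule. Between females and males they differed by 1.04 and 1.23 at 1 day, and between adult 1SY and 0.25SY in females by 0.05 (adjusted p = 0.14) and 0.31 (adjusted p = 2.85e-12). With age tko fell in females (-0.15) and males (-0.20, or -0.24 without the 3 arrays), and bonsai gave -0.01 in females (adjusted p = 0.83). In the same contrast of adult diets in females, 26 of 32 genes for complex I, the first enzyme of the respiratory chain, were lower and 0 higher (median -0.23), and of 37 cytosolic ribosomal protein genes 9 were higher and 4 lower (median 0.01).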

How the data were processed

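Each of the 216 Affymetrix arrays was taken to hold RNA of 5 pooled virgin flies, which the methods state for the middle-aged and old flies. The authors deposited log2 expression values made by robust multi-array averaging, from 2.90 to 15.09; 18769 probe sets were tested after 183 control probe sets were left out. The methods describe this step as run on each sex by itself, without stating that the deposited values come from it. The methods left out 6 arrays that they do not name, whereas all deposited arrays were used here. Arrays carry no read depth, so their number limits the precision.

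Groups came from the labels. Each sex was fitted alone with the factors age, adult diet and larval diet in every combination (72 arrays of the later ages, 108 arrays of 3 ages, 36 arrays at 1 day), and the sexes were compared in 1 fit of 216 arrays, with limma 3.58.1 in R 4.3.3 (lmFit and eBayes, all groups sharing 1 estimate of spread). P-values were adjusted by Benjamini and Hochberg over all 18769 probe sets. The code was tested on simulated data with known differences. Replicate numbers run from 1 to 4 in every group but did not pair the arrays: the deviations of same-numbered arrays had a mean correlation of -0.0014 in females and -0.0027 in males. No 2 arrays held identical values.

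The genes named in each comparison were the 5 probe sets with the largest difference among those called in the majority direction and up to 3 called in the other, the 5 with the largest interaction F, the 3 brightest and the 3 dimmest. The members and all gene lists were chosen with earlier results of these data known. Marker lists held 16 ovary, yolk and eggshell, 24 female germline, 25 testis and 19 muscle genes. Alternatives were other normalization, array centring and weights, a filter on dim probe sets, unmoderated tests, 1 probe set per gene, blocks by replicate or provider number, and left-out arrays or replicates. No sequences or promoters were analysed here.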

Additional observations from a re-analysis of the deposited data

Results flagged for a closer look

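The mean level of the 71 probe sets on single arrays was compared within each of the 54 groups of 4, and in 2 of them 1 array lay far from the other 3; chance alone marks about 1 in 20 such groups. In 1-day-old females on larval 1SY and adult 0.25SY, replicate 1 had 10.42 where the others all rounded to 10.39. In old males on larval 0.25SY and adult 2.5SY, replicate 1 had 10.18 where the others lay between 9.35 and 9.42, and this is the array with the female profile.

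Effects that differed between groups by a direct test were those of age between the sexes. For old against middle-aged flies 27 of 71 probe sets were called (28.9% of all tested), 9 more positive in females and 18 less. This majority direction turned without the 3 old male arrays, as given with the age effects above. For middle-aged against 1-day-old flies 60 were called (54.9%). For adult diet, the sexes differed in 65 probe sets between 1SY and 0.25SY (46.7% of all tested) and in 35 between 2.5SY and 0.25SY (28.4%). In females the age effect differed between adult diets in 21 probe sets, 29.6% of the 71, where 27% of all tested probe sets were called.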

How the results depend on the processing

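The number of the 71 probe sets called changed by less than 1.5 times in 220 combinations of a principal comparison and an alternative and by more in 30. With arrays centred on their medians, 18 in place of 37 were called for age in females, 2 in place of 18 and 1 in place of 8 for adult 1SY and 2.5SY against 0.25SY in males, and 0 in place of 1 for larval 1SY against 0.25SY in 1-day-old males, where repeated quantile normalization also gave 0. Array quality weights gave 35 in place of 21 for adult diet by age in females, and in males 32 and 27 for the same adult diets, 4 in place of 0 for larval 2.5SY against 0.25SY and 1 in place of 0 for adult diet by age. Provider number blocks gave 10 and 2 for the adult diets in males, and 11 in place of 38 and 0 in place of 1 for larval 1SY against 0.25SY in 1-day-old females and males. Without the 3 old male arrays, 21 were called for adult 2.5SY against 0.25SY in males, 1 for larval 2.5SY against 0.25SY and 2 for adult diet by age. The cause of these changes was not tested.

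Leaving out each replicate number in turn gave 20 to 40 calls for adult 2.5SY against 0.25SY in females, 7 to 23 for adult diet by age in females, 18 to 36 for age in males, 1 to 17 and 0 to 9 for adult 1SY and 2.5SY against 0.25SY in males, and 0 to 1 for larval 1SY against 0.25SY in 1-day-old males, with fewer arrays in each fit. With a replicate block, 37 were called for age and 58 for adult 1SY against 0.25SY in females, 22 for adult diet by age in females, and 28 and 18 for the same age and diet contrasts in males; the numbers do not pair the arrays. Centring reversed 6 values of single genes: mRpL28 between adult 1SY and 0.25SY in females (0.0042), at middle age (0.00065) and in old flies (0.0078), between 2.5SY and 0.25SY (6.4e-05) and between the sexes at 1 day (0.31), and mRpL41 between adult 1SY and 0.25SY (0.0215). Without the 2 female arrays of lowest quality weight, an alternative chosen after seeing the data, 44 were called for age in females, 56 for adult 1SY against 0.25SY and 20 for adult diet by age. The search for promoter motifs was not run. By the methods the pools of a group came from 1 cohort at the later ages, and the same was assumed at 1 day. Differences between cohorts therefore cannot be told apart from those between diets or ages. No array was repeated from the same RNA, and levels between the sexes may span separate normalizations of the sexes.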

Other observations

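The genes that maintain the mitochondrial genome were read from a short list, with 5 genes measured. All 5 were higher in 1-day-old females than in males (median difference 2.57), where the median of the 71 ribosomal protein probe sets was 0.97. On adult 1SY against 0.25SY in females 4 of the 5 were higher and 1 was lower (median 0.52), and in males 0 were called, or 2 lower without the 3 old male arrays that stood apart. From 1 day to middle age 4 of the 5 rose and 1 fell in males (median 0.49), and 1 rose and 4 fell in females (median -0.19). Between middle-aged and old males all 5 rose (median 0.33, or 0.26 without the 3 arrays), where 22 of the 71 fell and 6 rose (33 and 6 without them).

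Within mitochondrial gene expression, some synthetases ran against the direction of the ribosomal proteins in the sex difference. In 1-day-old females 28 of the 34 listed genes were higher than in males and 6 were lower, with IleRS-m (2.19) and GluRS-m (2.18) at one end and CysRS-m (-2.31) and TrpRS-m (-2.24), which also charge mitochondrial transfer RNAs, at the other. In males from 1 day to middle age Slimp (0.87), a paralogue of seryl-tRNA synthetase, and bsf (0.73), an RNA-binding protein, rose. Over the same interval TrpRS-m (-0.78) and CysRS-m (-0.68) fell. Both sets were split there, with 17 of the 34 higher and 13 lower, beside 38 and 18 of the 71. These values were chosen by the naming rule and are given without a test of the list.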
